A study of Mus musculus with 16 samples.

Results

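Chromatin accessibility inside gene bodies was measured at 37322 intragenic distal peaks, which made up 45.4% of the 82188 peaks of the series. Each is an interval of fixed width whose middle lies inside the RefSeq span of a protein-coding gene, and more than 1 kb from every protein-coding gene end, on the mouse build mm10. The series asks how partial loss of Smarca4, which encodes the BRG1 ATPase of the BAF chromatin remodeling complex, alters accessibility in germinal center B cells. Omni-ATAC, in which a transposase inserts adapters into open chromatin, gave 4 libraries in each of 4 groups of spleen cells from C57BL/6 mice aged 8 to 10 weeks: Smarca4+/- (HET) CC, Smarca4+/+ (WT) CC, HET CB and WT CB. The labels leave CB and CC unexplained, and centroblasts and centrocytes is the reading used here. They give no sort gate and nothing on what is lost from the Smarca4 allele or in which cells. They also do not tie replicates to separate animals, so p-values measure the spread among these libraries only, and that spread may be technical.

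Most DNA elements inside genes and away from their ends do not encode protein. Many are enhancers, short stretches that bind transcription factors and act on the host gene or on another gene at a distance, and others are alternative promoters of the host. BAF complexes slide and evict nucleosomes and are known for keeping enhancers open, and centroblasts and centrocytes are the proliferating and the selected states through which a germinal center B cell cycles. An accessible peak is thus a place where proteins can reach DNA, and its host gene need not be its target.

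The peaks lay in 9403 protein-coding genes, with 36906 inside 1 gene span and 416 inside 2 or more. With each peak assigned to its shortest host, 9339 genes held at least 1, the median was 2 per gene, and 3251 genes held a single one. The median peak was 15492 bp from the nearest gene end, in a host of median length 85997 bp. Exons and introns could not be told apart, because the gene table used here gives spans only. Just inside the 1 kb limit, 476 peaks lay 1.0 to 1.1 kb from a gene end and held a median of 11.2 CPM (counts relative to library totals adjusted by TMM), and 112 of them rose and 158 fell in WT CC relative to WT CB. Just outside it, 526 intragenic peaks at 0.9 to 1.0 kb held a median of 10.7 CPM, with 102 higher and 168 lower.

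Of these peaks, 1505 held an annotated transcription start in the RefSeq promoter table of GRCm38.p6, which is the assembly mm10 denotes. The start belonged to the host gene in 1260 and to a non-coding gene in 245. The table is incomplete, so a peak without an entry may still hold a start. Each entry runs from 250 bases before a start to 50 after it. The 4 windows below are shown because the results further on name their peaks: S100a3 (chr3:90586702-90587001, plus strand) and Dse (chr10:34207186-34207485, minus strand) were higher in CC than in CB, Ak7 (chr12:105705732-105706031, plus strand) was lower in CC and higher in HET CC than in WT CC, and Ifit1bl1 (chr19:34599378-34599677, minus strand) was lower in HET CC than in WT CC. Capitals mark matches on either strand to any of the motifs CCAAT box (CCAAT), TATA box (TATAAA), GC box (GGGCGG), AP-1 (TGANTCA), RUNX (TGTGGT), E-box (CAGCTG) and octamer (ATTTGCAT), none of which contains another.
S100a3: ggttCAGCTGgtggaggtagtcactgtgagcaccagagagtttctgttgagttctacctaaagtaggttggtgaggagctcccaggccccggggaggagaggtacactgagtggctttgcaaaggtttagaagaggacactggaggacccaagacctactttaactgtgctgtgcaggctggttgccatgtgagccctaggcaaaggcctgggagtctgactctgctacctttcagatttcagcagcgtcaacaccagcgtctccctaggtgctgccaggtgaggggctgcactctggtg
Dse: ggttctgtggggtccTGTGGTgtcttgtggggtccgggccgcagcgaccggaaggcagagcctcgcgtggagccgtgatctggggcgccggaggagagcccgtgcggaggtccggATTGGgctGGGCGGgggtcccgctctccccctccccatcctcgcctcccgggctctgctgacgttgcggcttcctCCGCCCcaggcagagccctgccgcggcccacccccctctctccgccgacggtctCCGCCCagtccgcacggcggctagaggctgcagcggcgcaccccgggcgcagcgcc
Ak7: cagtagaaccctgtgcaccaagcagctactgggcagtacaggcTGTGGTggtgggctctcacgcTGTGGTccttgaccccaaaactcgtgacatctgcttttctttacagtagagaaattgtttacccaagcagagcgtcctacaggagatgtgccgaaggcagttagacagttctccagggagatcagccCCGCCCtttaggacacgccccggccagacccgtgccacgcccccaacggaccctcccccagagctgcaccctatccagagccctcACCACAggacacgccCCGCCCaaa
Ifit1bl1: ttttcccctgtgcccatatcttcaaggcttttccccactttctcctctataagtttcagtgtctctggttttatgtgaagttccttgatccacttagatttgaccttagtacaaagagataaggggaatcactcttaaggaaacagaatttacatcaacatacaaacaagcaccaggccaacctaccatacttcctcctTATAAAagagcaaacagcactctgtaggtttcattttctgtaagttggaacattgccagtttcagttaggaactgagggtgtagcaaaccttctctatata
The peak covered 200 bases of the S100a3 window, 283 of the Dse window and all 300 of the other 2.

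The windows inside these peaks were rich in CpG. Their median GC content was 59.3%, against 52.7% over all 32851 windows of the table, with a median of 17 CpG dinucleotides against 7. A GC box stood in 55.5% of the windows inside the peaks and in 35.7% of all windows, and a TATA box in 5.8% against 13.6%. Shares for the CCAAT box were 32.7% against 37.4%, for RUNX 13.8% against 16.8%, for the E-box 16% against 16.3%, for AP-1 7.0% against 7.8%, and for the octamer 2.1% against 1.7%. The windows differ widely among themselves: the Dse window has 75.3% GC and 33 CpG, the Ak7 window 59.3% GC and 12 CpG, the S100a3 window 55.7% GC and 3 CpG, and the Ifit1bl1 window 39.7% GC and 0 CpG. A match is a string of letters and not a measured binding site.

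Depth differed between groups. Totals ran from 5310327 to 7474760 counts in HET CC, 3494356 to 3750936 in WT CC, 38716281 to 51011923 in HET CB and 31696941 to 38798802 in WT CB. The median intragenic distal peak held 35.0 counts in HET CC, 19.75 in WT CC, 258.25 in HET CB and 206.75 in WT CB, averaged over the 4 libraries of a group. Pairwise Pearson correlations of log2(CPM + 1) over these peaks were 0.896 to 0.927 within HET CC, 0.867 to 0.875 within WT CC, 0.990 to 0.994 within HET CB and 0.987 to 0.991 within WT CB. Small changes are thus less detectable in CC, and the part of depth in any difference between CC and CB was not tested. In pooled cells, fewer cells of a type and less signal per cell cannot be told apart.

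Single intragenic distal peaks were weaker than peaks near gene ends. Their median accessibility, as a mean over all libraries, was 5.57 CPM, against 19.1 CPM for the 17727 peaks within 1 kb of a gene end and 6.62 CPM for all peaks. Together they took 33.4 ± 0.33% of the counts in HET CC, 32.8 ± 0.194% in WT CC, 35.6 ± 0.128% in HET CB and 35.8 ± 0.0569% in WT CB (SD, n = 4 each). The share ranged from 33.1 to 33.7% in HET CC and from 32.5 to 32.9% in WT CC, below the range of 35.4 to 35.7% in HET CB and of 35.7 to 35.8% in WT CB. Every CC library was thus below every CB library. The peaks near gene ends moved the other way, with means of 44.6% in HET CC, 45.4% in WT CC, 42.5% in HET CB and 41.9% in WT CB.

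**Figure D1:**
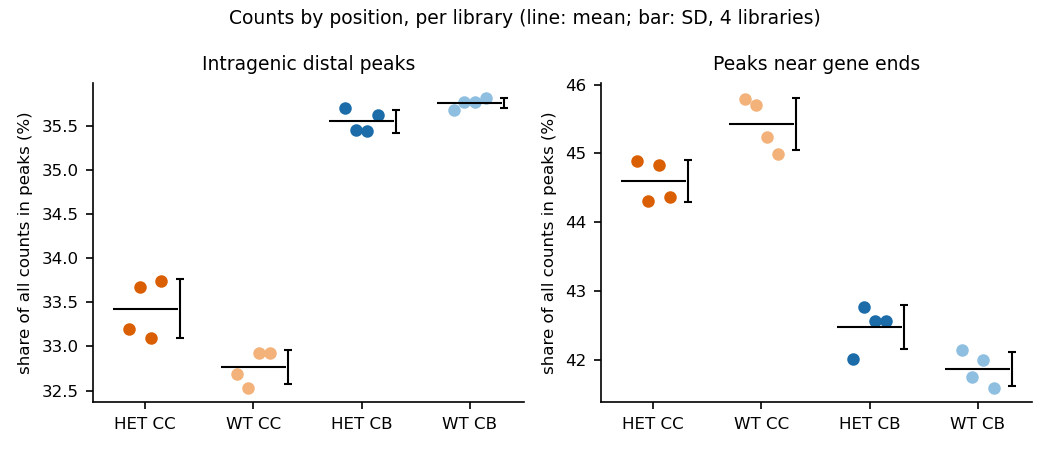
Percent of each library's counts in intragenic distal peaks and in peaks within 1 kb of a gene end, one point per library, for HET CC, WT CC, HET CB and WT CB, with the mean as a line and the SD as a bar. The intragenic share is 32.5 to 33.7% in the 8 CC libraries and 35.4 to 35.8% in the 8 CB libraries, and the share near gene ends is higher in CC.

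Intragenic distal peaks differed widely between CC and CB, in both directions and in both genotypes. In HET, 10535 rose and 11532 fell in CC relative to CB. In WT, 10110 rose and 11716 fell. A call here is an adjusted p below 0.05 in edgeR's quasi-likelihood test with Benjamini-Hochberg adjustment over all 82188 peaks, and every adjusted p of a peak below comes from it. Over all peaks 58.8% were called in HET (30.8% higher, 28.1% lower) and 57.9% in WT (30.2% higher, 27.7% lower), so the total called among intragenic peaks was near this background. The split differed: among intragenic distal peaks 28.2% were higher and 30.9% lower in HET, and 27.1% and 31.4% in WT. Near gene ends 5081 peaks rose and 5029 fell in CC in HET, and 5784 rose and 4220 fell in WT. The median log2 fold change of the intragenic peaks was -0.05 in HET and -0.09 in WT, against 0.00 and -0.01 over all peaks.

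The same peaks were largely called in both genotypes. Of the peaks higher in CC, 8727 were called in both, which is 82.8% of the HET list and 86.3% of the WT list. Of those lower in CC, 9472 were called in both, which is 82.1% of the HET list and 80.8% of the WT list. Only 8 peaks called higher and 10 called lower in WT were called the opposite way in HET. With a log2 fold change of at least 1 in size, 5966 called peaks were higher and 2333 lower in HET, and 6178 higher and 4779 lower in WT. Over all peaks the numbers were 12471 and 4150 in HET, and 12978 and 8317 in WT. Large decreases were thus fewer than large increases among intragenic peaks, as over the whole series.

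**Figure D2:**
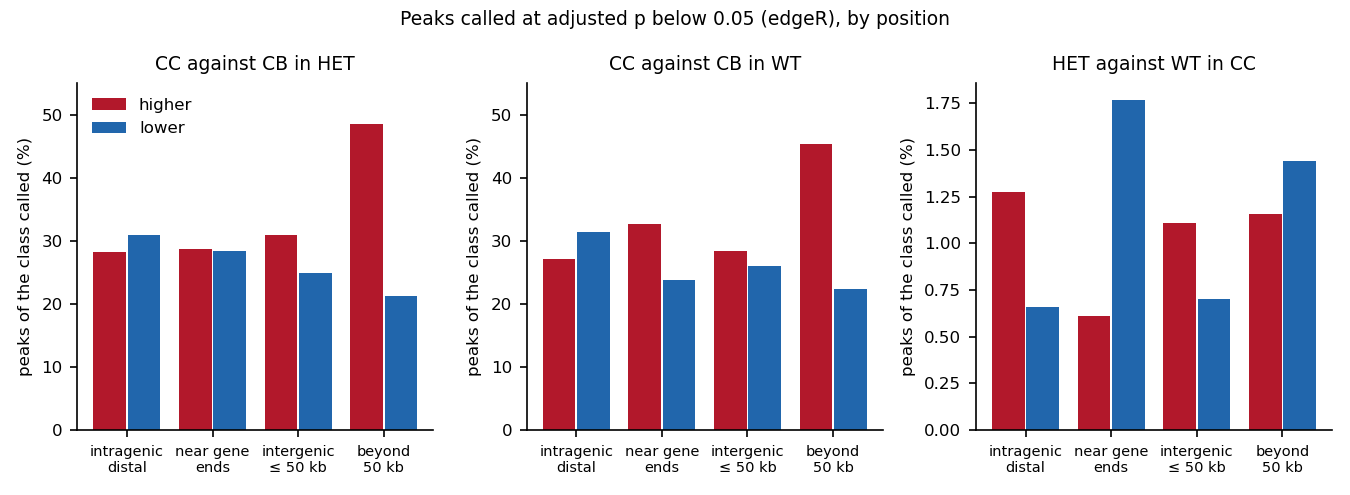
Percent of peaks called higher or lower, by position of the peak, for the CC to CB contrast in HET, the same in WT, and the HET to WT contrast in CC. Intragenic distal peaks were more often lower than higher in CC, and in HET CC they were more often higher (1.28%) than lower (0.659%), while peaks near gene ends were more often lower.

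Where a peak lay in its gene went with its direction. Among intragenic distal peaks 1 to 5 kb from a gene end, 22.7% rose and 32.5% fell in WT CC relative to WT CB, with a median log2 fold change of -0.13. At 5 to 20 kb the shares were 25.4% and 30.9%, and at 20 to 50 kb 27.3% and 32.7%. Beyond 50 kb, increases were the more frequent, with 35.3% higher, 29.2% lower and a median of 0.04. Accessibility also differed between these bins, from a median of 8.56 CPM at 1 to 5 kb to 4.53 CPM beyond 50 kb. Position and accessibility were not told apart here. The 1505 peaks that hold an annotated start, a group formed after the values were seen, also leaned upward, with 40.3% higher and 19.9% lower in WT CC. In HET, 517 of these rose and 352 fell in CC relative to CB.

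Direction also went with how open a peak was. All peaks were ranked by mean accessibility and cut into 4 bins of equal size. In the lowest bin, 54.3% of the intragenic peaks rose and 6.30% fell in WT CC relative to WT CB. The next bin had 19.6% higher and 26.8% lower, the next 12.3% and 51.7%, and the top bin 19.4% and 47.1%. Peaks near gene ends ran alike in the lower bins but not in the top one, where 39.5% were higher and 20.9% lower. Mean accessibility includes the libraries compared, and the libraries differ in depth, so these bins are a description.

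**Figure D3:**
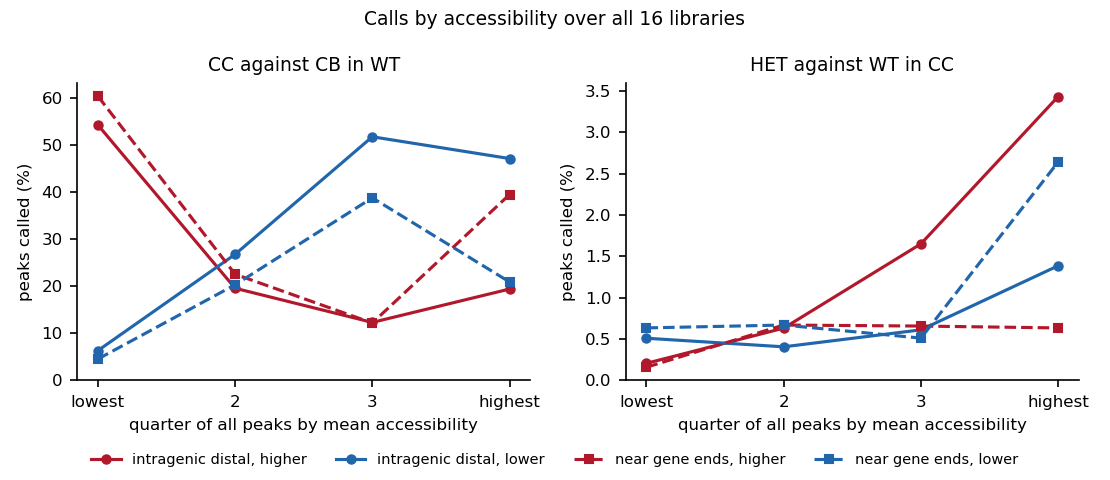
Percent of peaks called higher or lower in each of 4 bins of mean accessibility, solid for intragenic distal peaks and dashed for peaks near gene ends, for the CC to CB contrast in WT and the HET to WT contrast in CC. In WT the intragenic peaks turn from mostly higher in CC in the lowest bin (54.3%) to mostly lower in the top bin (47.1%).

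Some peaks are named for the size of their change among the better covered ones: those called, above the median of intragenic distal peaks in edgeR's average log2 CPM over all libraries, and without overlap between the groups compared. Within these limits the 4 largest increases in CC were inside Dapk1, Cobll1, Selp and Ipcef1 in each genotype, at a different Selp peak in HET than in WT, and peaks outside the limits moved by more in places. Dapk1 encodes a death-associated protein kinase, Selp the adhesion receptor P-selectin, and Ipcef1 a partner of cytohesin exchange factors. The Dapk1 peak (chr13:60737805-60738305), 25136 bp from the nearest gene end, held 16.3, 17.7, 22.7 and 14.0 CPM in HET CC and 22.0, 33.9, 25.1 and 23.8 CPM in WT CC. It held 1.51, 1.56, 1.72 and 1.5 CPM in HET CB and 2.35, 3.36, 3.05 and 2.99 CPM in WT CB. All 8 CC libraries were thus far above all 8 CB libraries. Lack of overlap within a genotype was a condition for naming this peak and the next, so it is no separate result. Over all peaks, the 4 CC libraries were above the 4 CB libraries without overlap at 26.6% in HET and 25.1% in WT, and below them at 25% and 24.1%. The log2 fold change of CC over CB was 3.48 ± 0.16 in HET (SE, adjusted p = 9.32e-25) and 3.15 ± 0.16 in WT (adjusted p = 4.16e-23). The Cobll1 peak (chr2:65189266-65189766) held 27.3, 11.1, 24.7 and 16.9 CPM in HET CC and 28.3, 23.6, 38.6 and 33.1 CPM in WT CC, against 1.81 to 2.64 CPM in HET CB and 3.14 to 4.49 CPM in WT CB. Here too CC and CB did not overlap, and the log2 fold changes were 3.17 ± 0.18 in HET (adjusted p = 3.11e-20) and 3.11 ± 0.18 in WT (adjusted p = 5.67e-20). The peak shared by the overlapping spans of Ipcef1 and Oprm1 (chr10:6982736-6983236) rose by 3.26 ± 0.17 in HET and 3.14 ± 0.17 in WT on the log2 scale, and the Selp peak named in WT (chr1:164135860-164136360) by 3.17 ± 0.16 and 3.15 ± 0.17.

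Within the same limits, the largest decreases in WT CC were at peaks inside Scn11a, a voltage-gated sodium channel, Rell1, Zfat, a zinc finger gene, and Med12l. The Scn11a peak (chr9:119823708-119824208) held 2.58, 3.56, 1.32 and 4.35 CPM in HET CC and 0.278, 0.883, 0.564 and 1.09 CPM in WT CC. It held 9.91, 7.96, 9.18 and 7.95 CPM in HET CB and 7.42, 8.75, 7.72 and 8.76 CPM in WT CB. The WT CC values rest on 1, 3, 2 and 4 counts. All CC libraries were below all CB libraries, which in WT was a condition for naming the peak. The log2 fold changes were -1.52 ± 0.20 in HET (adjusted p = 2.58e-09) and -3.52 ± 0.35 in WT (adjusted p = 1.32e-12). In HET the largest decreases within these limits were inside Suclg2, a subunit of succinyl-CoA ligase (-2.76 ± 0.20), Bptf, a subunit of the NURF chromatin remodeler (-2.58 ± 0.25), Deup1, a gene of centriole amplification (-2.28 ± 0.18), and Med12l (chr3:59066233-59066733, -2.25 ± 0.20). In WT CC the same 4 peaks had log2 fold changes of -1.95 (Suclg2), -1.88 (Bptf), -2.43 (Deup1) and -1.88 (Med12l), all called.

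Among the 1505 peaks at annotated starts, the S100a3 peak (chr3:90586802-90587302) held 24.3, 18.3, 20.6 and 19.2 CPM in HET CC and 29.2, 29.4, 22.0 and 27.9 CPM in WT CC, against 1.89 to 2.84 CPM in HET CB and 4.04 to 4.99 CPM in WT CB. S100a3 encodes a small calcium-binding protein. The peak rose by 3.08 ± 0.14 in HET and 2.64 ± 0.15 in WT on the log2 scale (adjusted p = 5.68e-25 and 8.09e-22). The Dse peak (chr10:34206968-34207468), in a gene for dermatan sulfate epimerase, held 20.6 to 25.5 CPM in HET CC and 25.6 to 39.5 CPM in WT CC, against 4.24 to 5.16 CPM in HET CB and 4.70 to 5.88 CPM in WT CB. It rose by 2.32 ± 0.13 in HET and 2.56 ± 0.13 in WT (adjusted p = 1.88e-22 and 6.11e-23). At the start inside Cdc14a, a phosphatase gene, accessibility was 6.36, 6.33, 3.21 and 5.59 CPM in HET CC and 2.50, 3.24, 1.97 and 1.64 CPM in WT CC. It was 13.2 to 14.3 CPM in HET CB and 12.5 to 15.5 CPM in WT CB, so every CC library was lower. In WT, lack of overlap was a condition for naming the peaks at annotated starts. The log2 fold changes were -1.31 ± 0.15 in HET and -2.60 ± 0.23 in WT (adjusted p = 1.18e-10 and 2.10e-14).

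**Figure D4:**
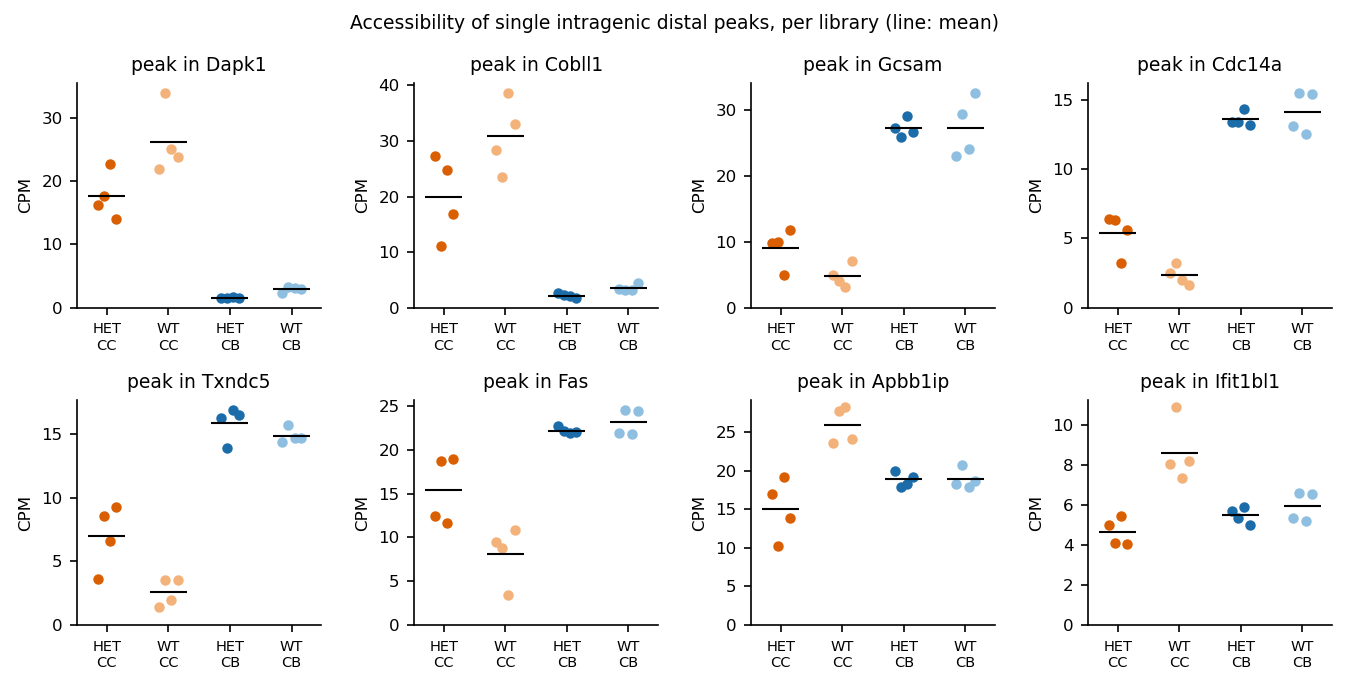
CPM in each library of single intragenic distal peaks inside Dapk1, Cobll1, Gcsam, Cdc14a, Txndc5, Fas, Apbb1ip and Ifit1bl1, for HET CC, WT CC, HET CB and WT CB. Dapk1 and Cobll1 separate all CC from all CB libraries upward and Gcsam and Cdc14a downward, while Txndc5, Fas, Apbb1ip and Ifit1bl1 separate HET CC from WT CC.

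Peaks inside genes of the germinal center program were mostly lower in CC. These genes include Gcsam, a germinal center adaptor that limits motility. Of 236 such peaks, 44 rose and 115 fell in HET CC, and 44 and 113 in WT CC, with medians of -0.29 and -0.34 against 0.00 and -0.01 over all peaks. The Gcsam peak (chr16:45620987-45621487) held 9.80, 10.0, 4.91 and 11.8 CPM in HET CC and 5.0, 4.12, 3.10 and 7.11 CPM in WT CC. It held 26.0 to 29.1 CPM in HET CB and 23.1 to 32.7 CPM in WT CB, so all CC libraries were below all CB libraries. It fell by 1.55 ± 0.14 in HET CC and by 2.49 ± 0.19 in WT CC on the log2 scale (adjusted p = 2.01e-14 and 2.80e-16). One peak inside Pou2f2, which encodes the octamer-binding factor OCT2, went the other way, at 8.85 to 12.7 CPM in HET CC and 9.45 to 16.5 CPM in WT CC, against 0.948 to 1.56 CPM in HET CB and 1.88 to 2.55 CPM in WT CB.

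Genes of the dark zone and of the light zone were pooled in 1 list, and their peaks leaned the same way. Of these 272 peaks, 53 rose and 132 fell in HET CC, and 55 and 121 in WT CC. The zones were not counted apart, so this lean cannot be assigned to either of them. Foxp1 alone held 110 of these peaks, with 30 higher and 46 lower in HET CC and 30 and 37 in WT CC. A peak inside Nr4a3, an orphan nuclear receptor induced by antigen receptor signals, was among the increases, at 5.67 to 10.9 CPM in HET CC, 7.23 to 18.3 CPM in WT CC, 0.870 to 1.28 CPM in HET CB and 1.47 to 1.69 CPM in WT CB. Among 117 peaks in plasma cell genes, 25 were higher and 56 lower in HET CC, and 25 and 58 in WT CC. Zbtb20 alone held 54 of these peaks, with 9 higher and 32 lower in HET CC and 11 and 32 in WT CC. Of 502 peaks inside B cell receptor signaling genes, 85 were higher and 229 lower in HET CC, and 89 and 206 in WT CC. An Itpr1 peak (chr6:108476831-108477331), in the gene of a calcium channel of the endoplasmic reticulum, rose by 3.42 ± 0.23 in HET CC and 3.26 ± 0.26 in WT CC on the log2 scale.

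Memory B cell genes were the list whose intragenic peaks mostly rose in CC, with 94 higher and 32 lower of 179 in HET and 105 and 24 in WT, and medians of 0.43 and 0.52. A peak (chr4:32343664-32344164) in Bach2, a repressor gene that stands in both this list and that of the germinal center program, held 14.4, 10.8, 16.2 and 8.07 CPM in HET CC and 9.17, 17.1, 6.48 and 6.84 CPM in WT CC. It held 1.75 to 2.46 CPM in HET CB and 2.64 to 2.98 CPM in WT CB, so CC and CB did not overlap. It rose by 2.66 ± 0.20 in HET and 1.80 ± 0.23 in WT on the log2 scale (adjusted p = 1.21e-16 and 2.63e-09). Several memory genes, Tcf7 among them, are also used by naive B cells or T cells.

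For the other lists the background is again 30.8% higher and 28.1% lower over all peaks in HET, and 30.2% and 27.7% in WT. B cell transcription factor genes held 658 of the peaks, with 184 higher and 240 lower in HET CC and 190 and 226 in WT CC. Regulators of small GTPases held 570, with 166 higher and 178 lower in HET CC and 164 and 176 in WT CC, for a share called of 60.4% in HET and 59.6% in WT, near the 58.8% and 57.9% over all peaks. B lymphoma tumor suppressors and chromatin regulators held 185, with 65 and 58 in HET CC and 63 and 53 in WT CC. Interleukin and TNF family receptors held 110, with 35 and 39 in HET CC and 40 and 34 in WT CC. The genes of the BAF complex itself held 145 and leaned lower, with 30 higher and 50 lower in HET CC and 29 and 58 in WT CC. The Bicra peak (chr7:16001598-16002098), in a gene of the non-canonical BAF form, was an increase, at 4.50 to 7.26 CPM in HET CC, 3.01 to 12.4 CPM in WT CC, 0.906 to 1.1 CPM in HET CB and 1.03 to 1.63 CPM in WT CB. In Sgk1, a kinase gene mutated in B lymphoma, a peak (chr10:21908587-21909087) rose by 3.16 ± 0.23 in HET CC and 2.94 ± 0.23 in WT CC. In Il12rb2, an interleukin 12 receptor chain, a peak (chr6:67347984-67348484) rose by 3.50 ± 0.26 in HET CC and 3.47 ± 0.26 in WT CC. The lists were chosen with earlier results of these data known, so their counts are descriptions.

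Markers of other cell types moved with the CC label. The background is the same, with 30.8% of all peaks higher and 28.1% lower in HET CC, and 30.2% and 27.7% in WT CC. Intragenic peaks of T cell marker genes were higher in CC in 43 of 55 and lower in 5 in HET, and in 42 and 6 in WT. Their summed level was 338 to 389 CPM in HET CC, 400 to 443 CPM in WT CC, 272 to 285 CPM in HET CB and 270 to 287 CPM in WT CB. The defining T cell genes Cd3e, Cd3g, Cd8a, Cd2, Cd28, Lck, Ctla4 and Icos held no intragenic distal peak. A peak in Tcf7, the gene of TCF-1 (chr11:52275303-52275803), held 5.43 to 8.50 CPM in HET CC and 6.67 to 14.1 CPM in WT CC, against 0.569 to 1.08 CPM in HET CB and 0.804 to 1.44 CPM in WT CB. NK cell markers summed to 32.7 to 43.3 CPM in HET CC, 37.8 to 45.6 in WT CC, 20.6 to 23.0 in HET CB and 22.0 to 26.2 in WT CB, with 4 of 6 peaks higher in CC in each genotype. The Klrd1 peak, in the gene of the NK receptor CD94, rose by 3.01 ± 0.25 in HET CC and 2.61 ± 0.26 in WT CC. Myeloid markers summed to 60.5 to 84.6 CPM in HET CC, 64.5 to 75.8 in WT CC, 30.3 to 33.8 in HET CB and 35.2 to 36.9 in WT CB, and 11 of their 12 peaks were higher in HET CC and 8 in WT CC. Of 16 stromal and follicular dendritic cell peaks, 9 rose and 1 fell in HET CC, and 8 and 1 in WT CC, with sums of 141 to 169 CPM in HET CC, 171 to 195 in WT CC, 114 to 125 in HET CB and 122 to 131 in WT CB. Of 5 erythroid and megakaryocyte peaks, 4 were lower in HET CC and 3 in WT CC. The share called in either direction was 58.8% in HET and 57.9% in WT over all peaks. It was near this for stromal markers (62.5% and 56.25%) and, with only 6 peaks, for NK cell markers (66.7% in each).

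B cell markers went down. Of 91 peaks in B cell marker genes, 3 were higher and 56 lower in HET CC, and 4 and 48 in WT CC, and their sum was 827 to 877 CPM in HET CC, 843 to 911 in WT CC, 1091 to 1117 in HET CB and 1132 to 1167 in WT CB. The share called was 64.8% in HET and 57.1% in WT, near the 58.8% and 57.9% over all peaks, and most of these calls were lower. Cd79a, Cd79b and Cr2 held no such peak. Germinal center B cell markers had 2 higher and 22 lower of 32 in HET CC and 2 and 25 in WT CC, with sums of 399 to 489 CPM in HET CC, 336 to 407 in WT CC, 603 to 619 in HET CB and 604 to 623 in WT CB. Peaks in Ebf1 (chr11:44663466-44663966) and Pax5 (chr4:44602426-44602926), the genes of both factors that hold B cell identity, fell in HET CC by 0.90 ± 0.10 and 1.35 ± 0.17 on the log2 scale. In WT CC they fell by 1.20 ± 0.13 and 1.96 ± 0.24. The part of other cell types in the difference between CC and CB was not tested.

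Large genes held peaks that went both ways. Foxp1, a transcription factor of B cells, held the most, with 110, of which 30 were higher and 46 lower in HET CC and 30 and 37 in WT CC. Arid1b, Lpp and Zbtb20 held 54 each, Wwox 53, Tcf4 52, Gse1 51, Akap13 and Elmo1 50, and Camk2d, Pde4d and Sgms1 49. The balance differed among them: in Camk2d, a calmodulin kinase, 3 were higher and 39 lower in HET CC and 3 and 34 in WT CC, and in Arid1b, a BAF subunit, 7 and 24 in HET CC and 5 and 29 in WT CC. In Zbtb20, a zinc finger repressor, 9 were higher and 32 lower in HET CC and 11 and 32 in WT CC. Pde4d, a phosphodiesterase, went the other way with 29 higher and 11 lower in HET CC and 27 and 10 in WT CC, as did Lpp with 28 and 11 in HET CC and 29 and 9 in WT CC. Of 1336 genes with at least 5 called peaks in HET, 245 had all higher, 241 all lower and 850 both directions, and of 1304 in WT the numbers were 238, 245 and 821.

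The inside of a gene was compared with its own ends in the same libraries. Counts of the intragenic distal peaks of a gene were summed, as were those of the peaks within 1 kb of either of its ends, in 6651 genes with both. A peak near the ends of several genes was counted only for the gene with the nearest end. The difference between both log2 fold changes was tested with edgeR's diffSpliceDGE and Benjamini-Hochberg adjustment over these genes. The inside moved above the ends in 1309 genes (19.7%) and below them in 2108 (31.7%) for CC against CB in HET. In WT it moved above in 1093 (16.4%) and below in 2362 (35.5%). The median difference, inside minus ends, was -0.11 in HET and -0.20 in WT on the log2 scale. The lean of intragenic peaks toward lower accessibility in CC was thus also present relative to the ends of the same gene.

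Dock4, an exchange factor for Rac and Rap GTPases, was 1 of the 5 genes named in each genotype for the largest rise of the inside above the ends, among called genes with at least 3 intragenic peaks. Its 15 intragenic peaks summed to 98.6, 78.6, 91.4 and 66.7 CPM in HET CC and 97.3, 92.4, 95.6 and 103 CPM in WT CC. They summed to 16.3, 12.9, 15.6 and 13.0 CPM in HET CB and 15.4, 18.7, 16.7 and 19.7 CPM in WT CB. Its ends held 21.4 to 24.7 CPM in HET CC, 15 to 25.4 in WT CC, 19.6 to 21.9 in HET CB and 18.8 to 21.4 in WT CB. The inside of Dock4 separated CC from CB without overlap, while at its ends CC and CB overlapped in both genotypes. The log2 fold change inside was 2.54 in HET and 2.47 in WT, that of the ends 0.15 and -0.06, and the difference 2.39 ± 0.14 in HET and 2.52 ± 0.16 in WT (adjusted p = 7.05e-22 and 1.76e-20). In Nek6, a mitotic kinase, the inside fell and the ends rose: the 8 intragenic peaks summed to 48.3 to 65.2 CPM in HET CC, 42.1 to 55 in WT CC, 84.8 to 91.8 in HET CB and 84.9 to 89.6 in WT CB. The Nek6 ends held 5.66 to 7.57 CPM in HET CC, 3.10 to 8.06 in WT CC, 0.583 to 0.819 in HET CB and 0.610 to 0.872 in WT CB. This end signal was weak in CB, and it leaves out any peak nearer to an end of another gene. The difference was -3.89 ± 0.25 in HET and -3.77 ± 0.31 in WT (adjusted p = 9.20e-21 and 2.26e-16).

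In CB the HET genotype changed few intragenic distal peaks, and all that were called fell. None rose and 52 fell in HET CB relative to WT CB, against 0.00243% higher and 0.127% lower over all peaks. At an unadjusted p below 0.05 there were 2772. Leaving out any 1 of the 8 CB libraries left 8 to 22 called, fitting CB libraries alone gave 116 higher and 302 lower, and DESeq2 gave 34 and 221. Of the 52 peaks, 9 fell by at least 1 on the log2 scale. Within the limits of average log2 CPM and overlap given above, the largest decreases were inside Trio, an exchange factor for small GTPases, Dapk1, Sntb1, a syntrophin, and S100a3. The Trio peak (chr15:27926407-27926907) held 3.05, 1.79, 2.14 and 1.77 CPM in HET CB and 4.36, 4.11, 3.73 and 4.13 CPM in WT CB. All 4 HET CB libraries were below all 4 WT CB libraries, which the limits required, so it is no separate result. Over all peaks this was the case for 4.95%, with the reverse for 3.57%. The log2 fold change was -0.92 ± 0.15 (adjusted p = 0.000974). At Dapk1, with the values given above, it was -0.90 ± 0.16 (adjusted p = 0.00626), and at S100a3 -0.84 ± 0.14 (adjusted p = 0.000974). At Sntb1 it was -0.88 ± 0.17 (adjusted p = 0.0117), a call lost without HET CB library 2 or 4 or WT CB library 2, with an adjusted p of up to 0.158. All 4 of these peaks stood higher in CC than in CB in each genotype, comparisons that share the CB libraries with this one.

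In CC, intragenic distal peaks were more often higher than lower in HET, and peaks near gene ends the reverse. Among intragenic distal peaks 476 rose and 246 fell in HET CC relative to WT CC, or 1.28% and 0.659%, against 1.08% and 0.979% over all peaks. Near gene ends 108 were higher and 314 lower. Intergenic peaks within 50 kb of a gene leaned like the intragenic ones, with 219 higher and 138 lower, and those beyond 50 kb had 86 and 107. With total counts as the scaling the split among intragenic peaks was 610 higher and 155 lower, and near gene ends 163 and 173. Of the called intragenic peaks 142 higher and 49 lower had a log2 fold change of at least 1 in size. The median over the intragenic peaks was 0.02, against 0.00 over all peaks. All 4 HET CC libraries were above all 4 WT CC libraries at 2.69% of all peaks and below them at 2.91%, the background for the statements on overlap that follow. For peaks named within the limits of overlap or at annotated starts, lack of overlap was a condition of naming and is no separate result. This comparison shares the WT CC libraries with that of CC and CB in WT.

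The number called in CC rested on few libraries. Without HET CC library 2 it was 123 in place of 722, and without HET CC library 4 it was 142. These were the 2 HET CC libraries with the most counts. It was 294 without WT CC library 2, 474 without WT CC library 1, 1208 without HET CC library 1 and 1326 without HET CC library 3. A fit of the CC libraries alone called 42 higher and 30 lower, and DESeq2 called 1155 and 871. In each of these, more intragenic peaks were higher than lower. The summed intragenic levels of T cell markers and of stromal and follicular dendritic cell markers were lower in HET CC than in WT CC. That of germinal center B cell markers was mostly higher, with the ranges given above. Sums of the other marker lists overlapped. Their means in HET CC and WT CC were 853 and 883 CPM for B cell markers and 37.1 and 42.9 CPM for NK cell markers. They were 71.8 and 69.7 CPM for myeloid markers and 64.9 and 58.8 CPM for erythroid and megakaryocyte markers. The part of a shifted cell makeup in the difference between HET CC and WT CC was not tested.

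Peaks inside germinal center genes had gained accessibility in HET CC relative to WT CC at several sites. Of the 236 peaks of the germinal center program 8 were higher and 3 lower, a share called of 4.66% against 2.06% over all peaks (1.08% higher, 0.979% lower), and with 1 library left out 3 to 11 were higher. Of the 32 peaks of germinal center B cell markers 5 were higher and none lower, 3 to 7 with 1 library left out and 4 in the fit of CC alone, and their median log2 fold change was 0.33 against 0.00 over all peaks.

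A peak inside Fas, the gene of a death receptor of germinal center B cells (chr19:34307492-34307992), held 12.4, 18.7, 11.7 and 18.9 CPM in HET CC and 9.45, 8.83, 3.38 and 10.9 CPM in WT CC. It held 22.7, 22.2, 21.9 and 22.0 CPM in HET CB and 21.9, 24.6, 21.8 and 24.4 CPM in WT CB. All HET CC libraries were above all WT CC libraries and below all CB libraries, with a log2 fold change of 0.94 ± 0.19 (adjusted p = 0.00625). The difference from the effect in CB was 1.01 ± 0.21 (adjusted p = 0.0279), a call lost without HET CB library 2 or 3, HET CC library 2 or 4 or WT CC library 2 or 3, with an adjusted p of up to 0.114. The Dock8 peak (chr19:25006666-25007166), in the gene of a CDC42 exchange factor needed in germinal center B cells, held 8.08, 10.3, 6.98 and 12.6 CPM in HET CC and 5.0, 1.47, 6.76 and 3.01 CPM in WT CC. HET CC was again above WT CC without overlap, by 1.24 ± 0.25 on the log2 scale (adjusted p = 0.00585). The calls of the Fas and Dock8 peaks in CC held with any 1 library left out. The difference from CB at Dock8 was 1.20 ± 0.28 (adjusted p = 0.0428), and leaving out any of 13 of the 16 libraries ended that call.

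Of 272 peaks of the dark zone and light zone programs 7 were higher and none lower in HET CC, a share called of 2.57% and so near the 2.06% over all peaks, with 0 to 13 higher when 1 library was left out and 0 in the fit of CC alone. A Foxp1 peak (chr6:99205094-99205594) held 11.7, 14.2, 15.9 and 17.1 CPM in HET CC and 10.8, 9.13, 9.87 and 6.29 CPM in WT CC. The groups did not overlap. It rose by 0.71 ± 0.18 (adjusted p = 0.0234, and up to 0.0967 without HET CC library 2 or 4 or WT CC library 2 or 4). Plasma cell genes held 6 higher and 1 lower of 117, or 5.98% called, with 0 to 12 higher when 1 library was left out and 0 in the fit of CC alone. Zbtb20, with 54 of the 117, held 3 of the higher ones. The peak inside Ell2 (chr13:75717861-75718361), an elongation factor that plasma cells use to make secreted antibody, held 17.0, 26.5, 15.3 and 25.5 CPM in HET CC and 13.3, 11.2, 12.1 and 15 CPM in WT CC, again without overlap. It rose by 0.73 ± 0.16 (adjusted p = 0.00887, and up to 0.0714 without HET CC library 2 or 4).

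Of the 179 peaks of memory B cell genes none was higher and 5 were lower in HET CC. The share called was 2.79%, near the 2.06% over all peaks (1.08% higher, 0.979% lower). With 1 library left out 0 to 9 were lower, and in the fit of CC alone 1 was. DESeq2 called 0 higher and 16 lower. The median log2 fold change of these memory gene peaks was -0.18. The single peaks that follow come from other lists. A peak in Lef1 (chr3:131112944-131113444), of the B cell transcription factor list, held 7.4, 7.65, 10.9 and 6.98 CPM in HET CC and 14.5, 16.2, 11 and 16.1 CPM in WT CC. It fell by 0.82 ± 0.19 (adjusted p = 0.0129, and up to 0.0578 without HET CC library 2 or 4). The Sgk1 peak at chr10:21992982-21993482, of the lymphoma suppressor list, held 23.4, 17.3, 17.7 and 21.6 CPM in HET CC and 29.5, 29.4, 34.1 and 27.4 CPM in WT CC. It fell by 0.59 ± 0.12 (adjusted p = 0.00662), without overlap, and the call held with any 1 library left out. Ebf1 stands in the lists of the germinal center program and of B cell transcription factors. Its peak at chr11:44709800-44710300 fell by 0.55 ± 0.15 (adjusted p = 0.0428), a call that leaving out any of 12 of the 16 libraries ended.

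The shares called in the next lists lay near the 2.06% over all peaks. B cell receptor signaling genes had 9 higher and 4 lower of 502 (2.59%), B cell transcription factors 6 and 6 of 658 (1.82%), regulators of small GTPases 8 and 4 of 570 (2.11%), interleukin and TNF family receptors 3 and 0 of 110 (2.73%), and lymphoma suppressors 1 and 2 of 185 (1.62%). Of the 145 peaks in BAF genes none was called with edgeR, 23 had an unadjusted p below 0.05, and DESeq2 called 3 higher and 5 lower. The Dpf1 peak (chr7:29307676-29308176), in a BAF subunit gene, held 15.3, 11.7, 10.8 and 14.1 CPM in HET CC and 7.50, 7.36, 9.30 and 10.7 CPM in WT CC, with a log2 fold change of 0.57 ± 0.18 that missed the threshold (adjusted p = 0.0715). Of the 55 T cell marker peaks none was called with edgeR, 10 had an unadjusted p below 0.05, and DESeq2 called 3 lower. The Tcf7 peak at chr11:52268423-52268923 held 7.91, 8.18, 11.7 and 11 CPM in HET CC and 14.7 to 15 CPM in WT CC, with a log2 fold change of -0.62 ± 0.19 (adjusted p = 0.0689).

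Within the limits of average log2 CPM and overlap given above, the 4 largest increases in HET CC were inside Scn11a, Slc20a2, a phosphate transporter, Atp13a1, an ATPase of the endoplasmic reticulum, and Txndc5, a protein disulfide isomerase. The Txndc5 peak (chr13:38522793-38523293) held 3.61, 8.58, 6.61 and 9.31 CPM in HET CC and 1.39, 3.53, 1.97 and 3.56 CPM in WT CC, against 13.9 to 16.9 CPM in HET CB and 14.4 to 15.7 CPM in WT CB. All 4 HET CC libraries were above all 4 WT CC libraries, as the limits required, while the CB groups overlapped. The log2 fold change in CC was 1.46 ± 0.29 (adjusted p = 0.00532). The Slc20a2 peak (chr8:22539907-22540407) held 4.64, 6.86, 5.47 and 12.0 CPM in HET CC and 4.17, 1.47, 2.25 and 1.64 CPM in WT CC, and rose by 1.61 ± 0.31 (adjusted p = 0.00372). Both calls held with any 1 library left out. The Scn11a peak, at 7 to 28 counts in HET CC and 1 to 4 in WT CC, rose by 2.11 ± 0.47 (adjusted p = 0.0117, and up to 0.0593 without HET CC library 2 or 4). The Atp13a1 peak (chr8:69792543-69793043) rose by 1.56 ± 0.36 (adjusted p = 0.0151), a call lost without HET CC library 2 or 4 or WT CC library 2 or 3, with an adjusted p of up to 0.0748.

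Within the same limits, the largest decreases in HET CC, all smaller than those of the 49 called peaks that fell by at least 1 on the log2 scale, were inside Pde2a, a phosphodiesterase, Ifit1bl1, a member of the interferon-induced IFIT family, Uck2, a uridine-cytidine kinase, and Apbb1ip, which encodes the integrin activator RIAM. The Apbb1ip peak (chr2:22784077-22784577) held 17.0, 10.2, 19.1 and 13.8 CPM in HET CC and 23.6, 27.7, 28.2 and 24.1 CPM in WT CC. It held 17.9 to 20 CPM in HET CB and 17.9 to 20.7 CPM in WT CB. Every HET CC library was below every WT CC library, as the limits required, and the CB groups overlapped. In CC it changed by -0.82 ± 0.14 on the log2 scale (adjusted p = 0.00202), and the call held with any 1 library left out. The Ifit1bl1 peak (chr19:34599236-34599736), whose window is printed above, held 4.99, 4.09, 5.47 and 4.04 CPM in HET CC and 8.06, 10.9, 7.33 and 8.21 CPM in WT CC, and fell by 0.91 ± 0.23 on the log2 scale (adjusted p = 0.0226, and up to 0.0914 without HET CC library 2 or 4 or WT CC library 2). The Pde2a peak fell by 0.93 ± 0.24 (adjusted p = 0.0257, and up to 0.102 without HET CC library 2 or 4 or WT CC library 1). The Uck2 peak fell by 0.84 ± 0.23 (adjusted p = 0.0428), and leaving out any of 11 of the 16 libraries ended that call.

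At the start inside Ak7, an adenylate kinase of motile cilia, the peak (chr12:105705695-105706195) held 8.60, 9.63, 12.8 and 14.4 CPM in HET CC and 6.95, 4.42, 7.33 and 6.57 CPM in WT CC. In CB it held 24.4 to 26.2 CPM in HET and 21.6 to 23.9 CPM in WT. The CC groups did not overlap, and the log2 fold change of HET over WT in CC was 0.84 ± 0.20 (adjusted p = 0.0154, and up to 0.0899 without HET CC library 4 or WT CC library 2). Of the 1505 peaks at annotated starts, 9 rose and 25 fell in HET CC relative to WT CC. Of the other intragenic distal peaks, 467 were higher and 221 lower. The difference between both splits was not tested. Of the peaks described for HET CC against WT CC, the calls in Atp13a1, Pde2a, Ifit1bl1, Uck2, Ak7, Foxp1, Ell2, Lef1 and Ebf1 were also lost in a fit of the CC libraries alone.

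By accessibility, the called increases in HET CC lay mostly among the more open intragenic peaks. From the lowest to the highest of the 4 bins, 21, 67, 165 and 223 were higher and 52, 43, 61 and 90 lower. These bins held 10220, 10615, 9993 and 6494 intragenic peaks. Their median log2 fold changes were -0.11, 0.06, 0.09 and 0.01, so the median was not highest in the top bin. Peaks with few counts are harder to call, and the part of this in the split was not tested. In the top bin of peaks near gene ends, 65 were higher and 271 lower. No gene held 5 or more intragenic peaks called between HET CC and WT CC.

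Within genes, the inside moved above the ends in HET CC relative to WT CC in 127 of 6651 genes (1.91%) and below in 26 (0.391%), with a median difference of 0.08 on the log2 scale. In Acat2, which encodes a cytosolic thiolase, the 4 intragenic peaks summed to 10.5, 22.2, 18.5 and 19.1 CPM in HET CC and 9.17, 9.72, 8.74 and 5.20 CPM in WT CC. Its ends held 48.9 to 56.2 CPM in HET CC and 49.0 to 54.4 CPM in WT CC. The inside of Acat2 separated the genotypes and its ends did not, with a difference of 1.1 ± 0.21 (adjusted p = 0.00393). In Ppargc1a, the gene of the coactivator PGC-1 alpha, the 4 intragenic peaks summed to 29.1, 31.0, 31.3 and 24.4 CPM in HET CC and 29.7, 39.7, 42.6 and 39.7 CPM in WT CC. The ends held 14.1, 15.7, 15.5 and 18.3 CPM in HET CC and 12.5, 11.8, 8.74 and 7.94 CPM in WT CC. The ends separated the genotypes, the inside overlapped, and the difference was -1.03 ± 0.21 (adjusted p = 0.00441). Both calls held with any 1 library left out and were lost with limma's voom and diffSplice. The total of 153 genes was 27 without HET CC library 2, 49 without library 4, 239 without library 1, 241 without library 3, 85 without WT CC library 1, 76 without WT CC library 2 and 2 with voom. Between HET CB and WT CB no gene was called with edgeR, 288 had an unadjusted p below 0.05, and voom called 9.

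**Figure D5:**
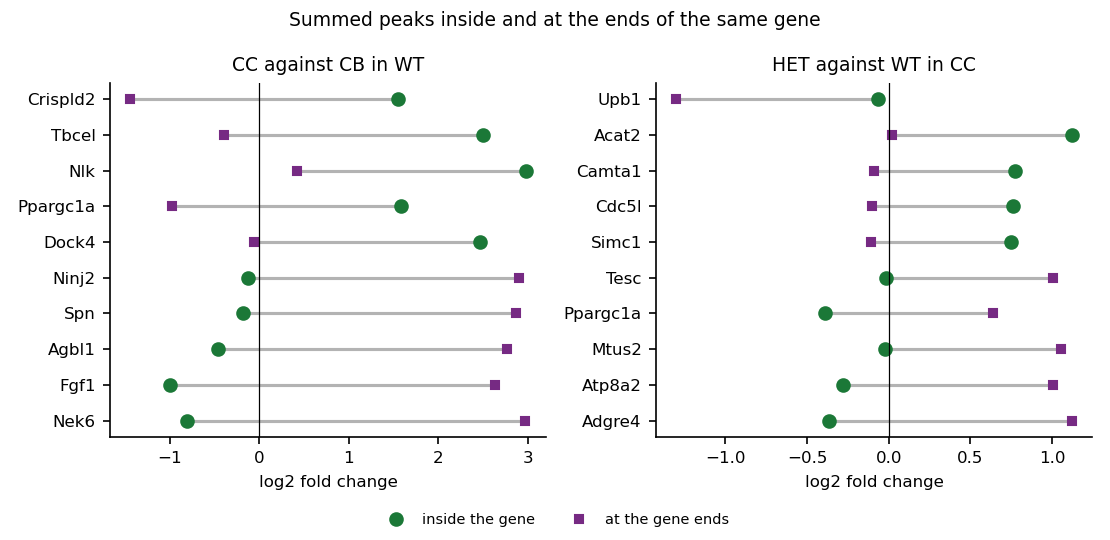
Log2 fold change of the summed intragenic distal peaks (inside) and of the summed peaks within 1 kb of the ends of the same gene, joined by a line, for the 10 genes named by rule for the CC to CB contrast in WT and the HET to WT contrast in CC. Peaks near the ends of several genes count for the nearest end only. Dock4 shows an inside at 2.47 and ends at -0.06 for CC over CB in WT, and Nek6 an inside at -0.80 and ends at 2.96.

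The effect of the HET genotype differed between CC and CB, tested as an interaction, at 62 intragenic distal peaks: 56 with a higher effect in CC and 6 with a lower one, against 0.128% and 0.0316% over all peaks. Intergenic peaks within 50 kb of a gene split in the same direction, with 25 and 2, and those beyond 50 kb with 21 and 2, while near gene ends there were 3 and 16. At an unadjusted p below 0.05 there were 4229 intragenic distal peaks. Among the named peaks the interaction, the CC effect less the CB effect, was 1.57 ± 0.37 in Suv39h1, a histone H3K9 methyltransferase (adjusted p = 0.0487), and 1.47 ± 0.34 in Cep164 (adjusted p = 0.0435) and 1.44 ± 0.32 in Cenpj (adjusted p = 0.0392), both centriole genes. It was 1.36 ± 0.31 in Txndc5 (adjusted p = 0.0447). It was -1.17 ± 0.26 in Atxn7, a subunit of the SAGA complex (adjusted p = 0.0392), -0.87 ± 0.19 in Zeb2, a zinc finger repressor (adjusted p = 0.0386), -0.81 ± 0.17 in Apbb1ip (adjusted p = 0.0194) and -0.67 ± 0.16 in Map3k1, a MAP kinase kinase kinase (adjusted p = 0.0492). All 8 are weak calls: each was lost with at least 3 of the 16 libraries when left out singly, Apbb1ip with 3 (HET CC 2, HET CC 4 and WT CC 2) and the others with 11 to 14. The Cenpj value rests in part on WT CC library 2, which held 0 counts there. The count of 62 fell to 7 without HET CC library 2, 12 without HET CC library 4 and 8 without WT CC library 2. It reached 224 without HET CC library 1 and 226 without HET CC library 3, and lay at 22 to 37 without any one of the 8 CB libraries or WT CC library 1 or 3.

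The Smarca4 gene itself, on chromosome 9, held 6 intragenic distal peaks, and none was called between HET and WT in CC or in CB. These peaks do not check the genotype, because the altered stretch of the gene is not given. At chr9:21625279-21625779, the most open of them, accessibility was 14.3, 23.6, 12.6 and 17.5 CPM in HET CC and 18.3, 15, 10.7 and 21.9 CPM in WT CC. It was 41.8, 42.7, 41.5 and 41.6 CPM in HET CB and 43.0, 41.2, 44.6 and 39.5 CPM in WT CB. The genotypes overlapped in both cell states, and the CC libraries were below the CB libraries. The log2 fold change of HET over WT was 0.08 ± 0.16 in CC (adjusted p = 0.851) and -0.01 ± 0.07 in CB (adjusted p = 0.995). That of CC over CB was -1.26 ± 0.10 in HET and -1.35 ± 0.13 in WT. The peaks at 21623296, 21626455 and 21627314 also fell in CC, by 0.97, 1.23 and 1.03 in HET and by 1.55, 1.36 and 1.22 in WT on the log2 scale. The peak at 21652071 rose in CC, by 0.79 ± 0.25 in HET and 0.99 ± 0.28 in WT, calls that were lost without HET CC library 4 and without WT CC library 4 (adjusted p up to 0.0969 and 0.098). The peak at 21630559 was not called.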

How the data were processed

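Chromatin accessibility was measured by Omni-ATAC in 16 libraries, 4 in each of 4 groups. The authors deposited 1 table of raw counts, with 82188 peaks shared by all libraries, and no other values were used. Tools named in the submitters' processing notes are BWA, FastQC, deepTools and R 4.2.1, with mm10 as the build; the peak caller and the counter are not given in the sources used here. Counts from PCR-amplified libraries cover counting error only.

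From the counts, peaks were placed with the RefSeq gene spans of GRCm38.p6, which give no exons. Peaks were then tested by robust quasi-likelihood in edgeR 4.0.16 (R 4.3.3), in 1 model of the 4 groups over all 16 libraries. TMM set the scaling, filterByExpr removed 0 peaks, and p-values were adjusted by Benjamini-Hochberg over the whole table, with calls at an adjusted p below 0.05. CPM were computed from the TMM-adjusted totals. Inside and ends of a gene were compared with diffSpliceDGE. The tests were checked on simulated counts. Alternatives were DESeq2 1.42.0, limma 3.58.1 voom, other scalings and filters, a replicate block, fits of 2 groups, other limits from gene ends, and each library left out.

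Per comparison, the peaks named are the 4 with the largest increase and the 4 with the largest decrease among called peaks above the intragenic median of edgeR's average log2 CPM whose libraries do not overlap (the overlap condition was not used for the interaction), up to 2 peaks per gene list by p, the hosts with most peaks, up to 5 genes each way by the difference between inside and ends among called genes with at least 3 peaks, and the peaks in Smarca4. The text prints part of these. The intragenic distal peaks, the gene lists and the comparisons were chosen with earlier results of these data known. Peaks at annotated starts were singled out after values had been seen. Peak sequences other than the RefSeq windows were not used here.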

Additional observations from a re-analysis of the deposited data

Results flagged for a closer look

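In 268 groups of 4 libraries of the peaks printed, 9 held a library far from the other 3 by Dixon's test, for which chance alone gives about 1 in 20. Inside Smarca4 these were HET CC library 4 at 5.43 CPM at 21623296, HET CB library 1 at 14.8 CPM and WT CB library 1 at 17.8 CPM at 21627314, and WT CC library 4 at 7.66 CPM at 21652071. The others were WT CB library 1 at 33.0 CPM in Capzb, HET CB library 1 at 2.46 CPM in Bach2, HET CC library 3 at 10.9 CPM in Lef1, HET CB library 1 at 21.1 CPM in Dpf1 and HET CC library 4 at 5.43 CPM in Tcf7.

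The HET effect differed between CC and CB by an interaction test with edgeR at 10 of the peaks printed. The difference, CC minus CB on the log2 scale, was 1.57 in Suv39h1, 1.47 in Cep164, 1.44 in Cenpj, 1.36 in Txndc5, 1.20 in Dock8, 1.01 in Fas, -0.67 in Map3k1, -0.81 in Apbb1ip, -0.87 in Zeb2 and -1.17 in Atxn7. None of these calls held under every alternative run.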

How the results depend on the processing

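Depth limits the precision of single peaks: the median intragenic peak held 19.75 counts in WT CC. Numbers of calls between CC and CB moved by more than 1.5 times only with a log2 fold change of at least 1, to 8299 in HET and 10957 in WT, and, for genes whose inside and ends differ, with at least 3 peaks per gene, to 1813 and 1893. For HET against WT in CC, 722 peaks became 72 in a fit of CC alone, 2026 with DESeq2, 191 with a log2 fold change of at least 1 and 123 to 1326 with 1 library left out. For HET against WT in CB, 52 became 418 in a fit of CB alone, 255 with DESeq2, 9 with a log2 fold change of at least 1 and 8 to 66 with 1 library left out. The interaction's 62 became 143 (138 higher, 5 lower) with total counts, 611 with DESeq2, 31 with a log2 fold change of at least 1 and 7 to 226 with 1 library left out. For inside against ends, HET against WT in CC moved to 2 with voom and 27 to 241 with 1 library left out, HET against WT in CB to 9 with voom and 1 at 2 kb, and the interaction to 2 with voom, 22 with at least 3 peaks and 0 to 79 with 1 library left out. The causes were not tested.

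The share of counts was 28.5% in HET CC, 27.9% in WT CC, 30.4% in HET CB and 30.6% in WT CB at 2 kb from every gene end. At 5 kb it was 23.0% in HET CC, 22.5% in WT CC, 24.5% in HET CB and 24.8% in WT CB. Without chromosome X it was 32.8% in HET CC, 32.1% in WT CC, 34.9% in HET CB and 35.1% in WT CB. CC stayed below CB in each.

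Same-numbered libraries were not shown to be paired: correlations of their deviations were 0.035 to 0.069 between HET CC and HET CB, 0.038 to 0.047 between WT CC and WT CB, -0.025 to 0.016 between HET CC and WT CC and -0.144 to -0.118 between HET CB and WT CB. In CB, HET libraries 1 and 3 went with WT libraries 2 and 4, and HET 2 and 4 with WT 1 and 3, at 0.113 to 0.145. Each library correlated best with its own number in 3 of 4 cases in HET, 4 of 4 in WT, and 0 between genotypes. With the replicate number as a block, HET against WT gave 374 higher and 181 lower in CC and 21 in CB, and the interaction gave 29 peaks and 7 genes. This block gives a number the same effect in both genotypes, and no fit paired CC with CB within a genotype.

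Of the named calls, all 10 genes per genotype between CC and CB, 42 of 43 peaks in HET and 47 of 49 in WT held in every alternative. For HET against WT in CC 8 of 31 peaks and none of 10 genes did, in CB 3 of 7 peaks, and for the interaction none of 12 peaks and 5 genes. Signs turned only at Smarca4 peaks that were not called. At 21625279 HET against WT in CB was 0.003 in a fit of CB alone and -0.037 to 0.021 with 1 library left out, and in CC -0.146 to 0.25. At 21627314 in CB it was 0.007 and -0.031 to 0.05. In CC it was -0.026 to 0.167 at 21626455, -0.197 to 0.052 at 21630559 and -0.556 to 0.079 at 21652071.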
